A study of Mus musculus with 16 samples.

Results

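The intervals described here were 3' UTR stretches of mouse messenger RNAs in which T, the DNA letter that stands for uridine (U) in the RNA, made up at least 34% of the bases. Each gene was represented by the counted interval with the highest mean CPM (the read count scaled to library size), and intervals were kept where the mean CPM was at least 5 and the length was over 200 and under 3000 bases. Of 21177 genes, 4664 had such an interval of middle length, and 644 of these (13.8%) reached the T share of 0.34. The 4020 others served as the comparison. The rule used composition, length and mean read level, not the label measured in any library. The set was nevertheless proposed with earlier results of these data known.

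The libraries were made from polyA RNA of leukemia cells (tissue bone marrow, strain C57BL/6) from WT and YBX1-/- mice. Both groups were labelled for 24 h with 50 µM 4-thiouridine (4sU), a uridine analogue built into new RNA, then washed and chased with 10 mM uridine. RNA was taken at 0, 0.5, 1, 3, 6, 12, 18 and 24 h of chase, with 1 library for each genotype and time, 16 in all. How the leukemia was started, how YBX1 was deleted, how many animals gave cells and their ages were not given in the sources used here. The method, SLAM-seq, reads 4sU as T-to-C changes, and the value per interval is the T-to-C rate in percent. The sources used here do not say if its denominator is the reads or the T positions they cover. A falling rate can follow from decay of labelled RNA or from dilution by new RNA, and these cannot be told apart. There were no replicates, so each p-value below rests on the scatter of time points. For slopes and their differences this was scatter about a line, and for the level of label about a constant difference between genotypes.

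The 3' UTR lies behind the stop codon and holds many of the sites through which proteins and microRNAs set the translation and lifetime of a messenger RNA. U-rich stretches are bound by proteins such as the ELAV family, TIA1 and TIAL1, hnRNP C and PTBP1. AU-rich elements, built around the pentamer AUUUA, are bound by decay-promoting proteins such as ZFP36 and by the stabilising protein HuR, and are known from short-lived messages of cytokines and transcription factors. YBX1 is a cold-shock domain protein that binds messenger RNA, and the series title asks about its effect on mRNA stability.

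The sequences were taken from GENCODE M21 transcripts of the mouse build GRCm38, and the number of T equalled the deposited T content in all 4655 intervals for which a sequence was taken, 643 of them U-rich. The 5 U-rich intervals with the highest T share are shown first, each by 30 bases around its longest run of T, which is in capitals. They show that a high T share took the form of long unbroken runs in some intervals and of many short runs in others.
Pfdn4, chr2:170518809-170518838, plus strand: tttataatacTTTTTTTTTatcttgtttta
Ranbp1, chr16:18239933-18239962, minus strand: ttttgttttgTTTTTTTTTTaacttttttt
Cdkn2c, chr4:109660976-109661005, minus strand: ttatctttgaTTTTTTTTTTctttgcttac
Spidr, chr16:15889470-15889499, minus strand: tctaatacacaTTTTTTTaaactttacctt
Tm2d1, chr4:98355612-98355641, minus strand: tggaattccagaTTTTTcttttcctttaat

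The next 3 windows are shown because they hold ATTTA, the core of AU-rich elements, in capitals. In Hif1a 2 copies of the pentamer overlapped, and in Myc and Ccl2 a single copy lay within a run of A and T.
Hif1a, chr12:73945997-73946026, plus strand: cATTTAaaatgcacctttttATTTATTTAt
Myc, chr15:61990134-61990163, plus strand: ttaacagatttgtATTTAattgttttttta
Ccl2, chr11:82037205-82037234, plus strand: taatattaaacttATTTAacttattgatgt

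All 644 U-rich intervals belonged to protein-coding genes and lay past the coding sequence in a 3' UTR, and 77 also overlapped the coding sequence of another transcript. Their T percent ran from 34 to 46.1 with a median of 35.6, against a median of 28.2 in the others. Length and read level were close to those of the others, with median lengths of 1093 and 1068 bases and median CPM of 16.3 and 13.3. The members were not fully independent of each other, since 3 pairs shared bases (an interval entered under 2 identifiers of Sept2, Gm20498 with Cox16, and Schip1 with Iqschfp). The T share threshold fell inside a continuous range. Just inside it were Mospd1 (34% T) and Hnrnpm (34%), with early rates in WT of 43.1% and 57.8%. Just outside it were Hspa13 and Map2k1, both also at 34% after rounding, with 52.5% and 51.5%.

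Of the marker sets checked, the myeloid one was the most fully detected. Of 12 myeloid markers 11 reached a mean CPM of 5, with Lyz2, which encodes a lysozyme, highest at 7376. None of 5 erythroid, 6 lymphoid or 5 stromal and endothelial markers reached it, and 2 of 4 megakaryocyte markers did, Pf4 highest at 39.8. CPM was deposited as a mean over the libraries, so neither these markers nor the amount of Ybx1 RNA could be compared between the genotypes. The YBX1-/- 0 h library stood apart over the 644 U-rich intervals, where it correlated at 0.199 on average with the remaining 0 to 1 h libraries, while each of those had 0.462 to 0.657. Of the U-rich intervals, 2.17% stood at 0 there and 0% at WT 0 h. How deeply each library was sequenced is unknown.

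Ybx1, the gene targeted in the study, has its own interval in the set (chromosome 4, 119277981 to 119278367, 387 bases with 34.9% T and no ATTTA). Label in it went through 55.2%, 61.4%, 56.8%, 50.1%, 38.9%, 15.5%, 7.29% and 5.08% over the chase of WT cells, and through 72.0%, 51.7%, 43.4%, 48.9%, 31.1%, 20.8%, 4.67% and 3.08% in YBX1-/- cells. The genotypes overlapped, with YBX1-/- the lower at 6 of 8 times, and neither difference passed (decay difference adjusted p = 0.463, limma with Benjamini-Hochberg adjustment). A rate is a share and not an amount, and the deleted stretch of the gene was not given in the sources used here, so these values do not check the genotype.

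U-rich intervals carried a higher T-to-C rate than the others in all 16 libraries. In WT their median rate was 48.8%, 56.7% and 52.6% at 0, 0.5 and 1 h, where the others had 41.7%, 47.8% and 42.3%. It then fell to 24.8% at 3 h, 12.4% at 6 h and 2.50% at 12 h, and the others to 19.5%, 9.66% and 2.04%. At 18 and 24 h the U-rich median was 1.2% and 1.11%, where the others had 1.08% and 0.844%. The YBX1-/- libraries gave lower medians at the start, 38.7%, 42.8% and 34.4% for the U-rich intervals and 32.3%, 35.5% and 28.8% for the others. From 3 to 24 h the U-rich medians there were 22.5%, 5.76%, 2.17%, 1.66% and 0.845%, and those of the others 17.5%, 4.36%, 1.56%, 1.17% and 0.709%. In each 12 to 24 h library of both genotypes, fewer U-rich than other intervals stood at 0 (4.97% to 18.5%, against 10.1% to 28.1%). On the log2(rate + 0.1 percentage points) scale the difference was 0.28 ± 0.076 (SD, n = 8 time points) in WT, with a range of 0.14 to 0.36. In YBX1-/- it was 0.34 ± 0.097 (SD, n = 8), with a range of 0.22 to 0.47, and 0.35 without the 0 h library. No test was made of the difference, since the members were chosen with results of these data known.

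**Figure D1:**
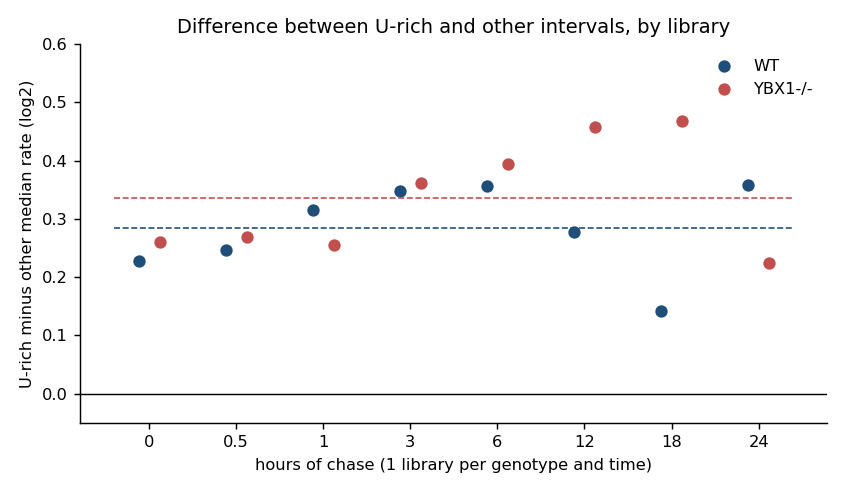
The log2 difference between the median rate of the 644 U-rich and the 4020 other intervals (y axis) in each library, by hours of chase (x axis, evenly spaced), with 1 point per library and dashed lines at the mean of each genotype. All 16 points lie above 0, between 0.14 in the WT 18 h library and 0.47 in the YBX1-/- 18 h library.

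The higher rate was one end of a gradient over the T share. In 6 classes of rising T share, from under 0.22 to 0.38 and over, the median early rate in WT (the mean of 0, 0.5 and 1 h) was 34.4%, 39.5%, 44.6%, 48.8%, 52.4% and 56.0%. The early rate in YBX1-/- climbed through the same classes from 25.3% to 40.4%. The classes held 259, 965, 1442, 1354, 567 and 77 intervals, and the last 2 make up the U-rich set. Across the 4663 intervals of middle length with a value in WT, T share and early rate had a Spearman rho of 0.61, and among the 644 U-rich intervals alone, where the range of T share is narrow, 0.21. Points in these correlations share their libraries, and the T share enters both the choice of intervals and, through the covered Ts, possibly the rate itself, whose part in the result was not tested.

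**Figure D2:**
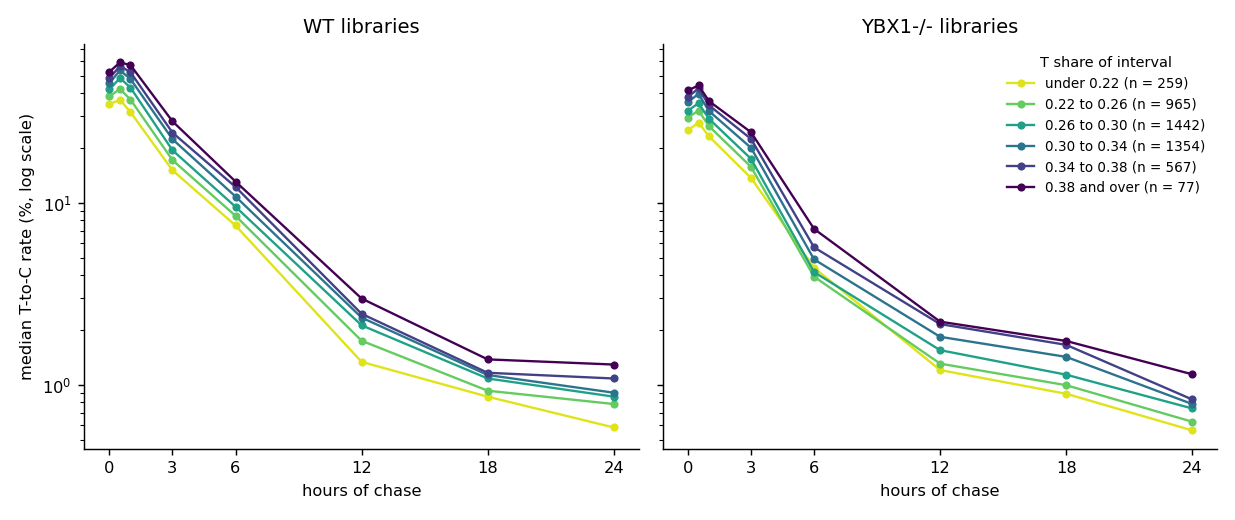
Median T-to-C rate (y axis, log scale, percent) over hours of chase (x axis) for 6 classes of T share, in WT (left) and YBX1-/- (right), 1 library per time point. The lines run nearly parallel and are ordered by T share in WT at every time point, from 34.8% to 52.4% at 0 h. At 6 h in YBX1-/- the class under 0.22 (4.40%) lies above the next 2 classes (3.93% and 4.16%).

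The share of label still present at 3 and 6 h showed no such gradient. This share, the mean rate at 3 and 6 h as a percent of the mean rate at 0 to 1 h, had medians in WT of 36.5%, 33.5%, 33.4%, 34.9%, 35.2% and 38.7% through the 6 classes. Spearman's rho with T share was 0.0012 in WT and 0.0015 in YBX1-/-. The U-rich intervals retained a median of 35.7% in WT (quartiles 27.5% and 46.2%) and 35.9% in YBX1-/- (quartiles 25.4% and 51.1%), and the others 34.3% and 34.8%. The sign of this small difference depended on the read level: among intervals with a CPM of at least 20 the U-rich median lay 1.93 percentage points below that of the others in WT and 0.64 below in YBX1-/-. By 12 to 24 h the retained median was 3.36% for both sets in WT, and 4.19% against 3.87% in YBX1-/-. An exponential fitted to the median rates gave the U-rich intervals a half-life of the label of 2.96 h in WT, ranging from 2.18 to 3.23 h as each time point was left out, and the others 2.76 h (2.01 to 3.08 h). The YBX1-/- values were 2.78 h (2.23 to 3.40 h) and 2.63 h (2.09 to 3.14 h). The U-rich half-life was the longer in both genotypes. The same time points were left out of both sets, so the overlap of the ranges does not measure this difference, which was not tested.

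**Figure D3:**
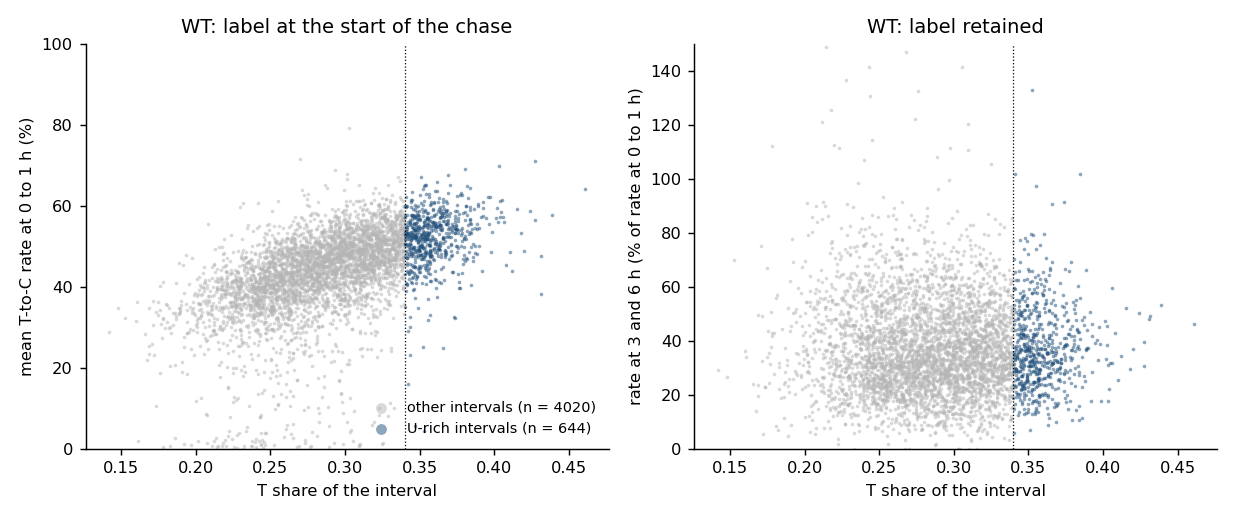
T share of each interval of middle length (x axis) against the mean rate at 0 to 1 h (left) and against the label retained at 3 and 6 h (right), WT libraries, with the 644 U-rich intervals in blue and the dotted line at 0.34. The cloud climbs with T share on the left and stays level on the right, where 13 intervals over 150% lie outside the axis.

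The mean difference was positive at each length and read level. With the intervals of middle length divided into 3 classes of length and 3 of CPM, the U-rich median exceeded that of the others in each of the 9 cells, by a mean over libraries of 0.18 to 0.58 (log2), and in 13 to 16 of the 16 libraries. In the 6 cells of medium and high CPM the mean was 0.20 to 0.42, with SDs over libraries of 0.081 to 0.15. In the 3 cells of low CPM it was 0.18 to 0.58, with SDs of 0.52 to 0.91, each larger than the mean itself. The cells held 56 to 89 U-rich intervals. In the same cells the U-rich intervals retained more label than the others in 5 of 9 in WT and in 6 of 9 in YBX1-/-. Within the U-rich set, retention went down with length, from a median of 39.7% in the shortest of 3 classes (201 to 752 bases) to 35.4% and 32.2% in the longer ones in WT, and from 45.1% to 33.8% and 32.4% in YBX1-/-. It went up with read level, with a rho of 0.32 in WT and 0.31 in YBX1-/-. Both trends were also present over all intervals of middle length. There the rho of retention with length was -0.25 in WT and -0.27 in YBX1-/-, beside -0.23 and -0.20 in the U-rich set. With read level it was 0.30 and 0.29. The early rate hardly differed between the same classes of length, at 53.7%, 52.1% and 52.8% in WT.

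Motif letters were counted on the transcript strand, overlapping copies included, in the 643 U-rich and 4012 other intervals with a sequence. The AU-rich pentamer ATTTA was in 89.7% of the U-rich and 67.4% of the other intervals, at 3.11 and 1.53 copies per 1000 bases. Its longer form TATTTAT, which contains it, was in 38.4% against 22.8%, and the nonamer TTATTTATT, which contains both, in 61 U-rich intervals, 9.49% against 4.99%. A run of 7 T, TTTTTTT, was found in 69.1% against 38.8%. The median longest run was 8 T in the U-rich and 6 T in the other intervals, and the longest was 39 T. The Pumilio motif TGTANATA was in 35.6% against 21.0%, and TTTTAT, a cytoplasmic polyadenylation element core, in 82.3% against 52.4%. The polyadenylation hexamer AATAAA was in 89.4% against 82.7%. TGTTTG, whose letters are rich in GU, was in 62.4% against 46.4%. GGACT, a form of the m6A motif DRACH, was in 53.3% of the U-rich and 66.1% of the other intervals. DRACH itself occurred in 100% and 99.95% at 18.9 and 20.3 copies per 1000 bases, and CATC, a short motif of Y-box proteins, in 87.4% and 91.6%. These shares follow in part from base composition, and a match is a description of letters, not of a bound site.

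AU-rich pentamers did not sort the U-rich intervals by their early rate. Those with 0, 1 to 3 and over 3 copies of ATTTA (66, 268 and 309 intervals) had early medians in WT of 53.2%, 52.6% and 52.9%. They retained 38.7%, 36.8% and 33.5% of it in WT, and 46.9%, 39.6% and 32.8% in YBX1-/-. The other intervals of middle length fell likewise through these classes, with 37.9%, 33.7% and 31.0% in WT. In YBX1-/- they retained 42.2%, 33.2% and 29.7%. Median length moved with these classes, at 402, 717 and 1791 bases in the U-rich and 569, 1170 and 1983 in the other intervals. Density of ATTTA per 1000 bases was then compared within 3 classes of length of the U-rich intervals. Those above the median density retained less label than the rest among the short intervals (37.0% against 41.4% in WT). They did not among the medium (36.6% against 34%) or the long intervals (32.5% against 32.2%). In YBX1-/- the values above the median density were lower in all 3 classes, at 41.5% against 47.4%, 33.4% against 34.2% and 31.3% against 35.6%.

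Members with many copies of ATTTA were found on both sides of the median retention of the U-rich set. Prkaa1, a catalytic subunit of AMP-activated protein kinase, held 16 copies and carried 44%, 56.8%, 40%, 21.4%, 14.2%, 2.96%, 2.39% and 0% label from 0 to 24 h in WT. In YBX1-/- it carried 60%, 49.2%, 27.1%, 3.39%, 7.45%, 2.38%, 0% and 0.667%. It was lower in YBX1-/- at 6 of 8 times. Ptp4a1, a tyrosine phosphatase, held 15, and Tmem263 and Ube2d3, a ubiquitin-conjugating enzyme, held 14 each. Label retained in WT was 37.9% in Prkaa1, 41.2% in Ptp4a1, 42.3% in Ube2d3 and 24.7% in Tmem263, beside the median of 35.7%.

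The members with the most T were labelled at or above the U-rich median with 2 exceptions. Pfdn4, a prefoldin subunit that helps newly made proteins fold, had 46.1% T in 319 bases (chromosome 2, 170518805 to 170519123). Its rates in WT were 65.9%, 59.4%, 67.2%, 40.6%, 18.6%, 1.52%, 1.28% and 1.37%, and in YBX1-/- 52.1%, 53.4%, 44.5%, 34.1%, 9.21%, 0.599%, 2.35% and 0%. The WT value was the higher one at 7 of 8 times. Ranbp1, a cofactor of the Ran GTPase in nuclear transport, had 43.9% T and early rates of 57.7% in WT and 38.7% in YBX1-/-. The early rate in WT was 71.1% in Tm2d1, 47.7% in Cdkn2c, which encodes an inhibitor of cyclin-dependent kinases, and 38.3% in Spidr, a DNA repair gene. The latter 2 were below the U-rich median of 52.7%.

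The most abundant member was Tubb5, a beta-tubulin, at 1914 CPM (chromosome 17, 35833921 to 35834981). It carried 43.0%, 47.1%, 40.9%, 19.1%, 10.7%, 2.20%, 0.917% and 0.699% label in WT. In YBX1-/- it carried 33.2%, 34.8%, 29.7%, 20.4%, 6.73%, 1.14%, 0.767% and 0.602%. Its label was thus higher in WT at each time except 3 h. Actb, the cytoplasmic beta-actin (1000.1 CPM), kept its label longer, with 54.4%, 50.3%, 45.9%, 39.7%, 31.2%, 7.30%, 2.17% and 2.06% in WT and 44.1%, 44.2%, 40.2%, 40.1%, 24.8%, 7.36%, 3.48% and 1.54% in YBX1-/-. Actb retained 70.6% and 75.9%, and Tubb5 34.1% and 41.7%, and these were the 2 members with the highest read level. H3f3b, which encodes the replacement histone H3.3, retained 31.1% in WT, and Srsf2, a splicing factor, 29.6%.

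Retention in WT spanned 5.84% to 133% among the 644 members. Among tested members with an early rate above the median, Hmgn5, a nucleosome-binding protein, retained the most at 91.6%. Its rates in WT were 71.9%, 48.3%, 52.5%, 55.1%, 50.3%, 2.44%, 0.990% and 2.70%, and in YBX1-/- 27.3%, 50.0%, 40.7%, 36.4%, 29.9%, 15.8%, 4.46% and 1.32%. The WT rate stayed high to 6 h and was low from 12 h on. Rnaset2b, a ribonuclease whose reads cannot be told with certainty from the near copy Rnaset2a, retained 79.6%, and Ybx1 itself 77.0%. At the other end Gtf3c3, a subunit of the RNA polymerase III factor TFIIIC, went from 52.6%, 54.8% and 71.5% at 0 to 1 h to 1.71% at 3 h and 5.26% at 6 h in WT. In YBX1-/- its 3 h value was 28.6% and its 6 h value 0%. Tmem68 (8.79% retained in WT) and Tubgcp5 (10.0%), a protein of the gamma-tubulin complex, were also close to 0 at 3 h in WT, at 0.599% and 0%, and higher at 6 h, at 9.80% and 11.3%. In all 3 the WT 3 h rate was below the 6 h rate, and the same members retained 28.2%, 27.6% and 37.1% in YBX1-/-. Chosen after their values were seen, Tatdn1 (early rate 4.36%), Mycbp and Scin were the 3 members over 100% in WT.

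**Figure D4:**
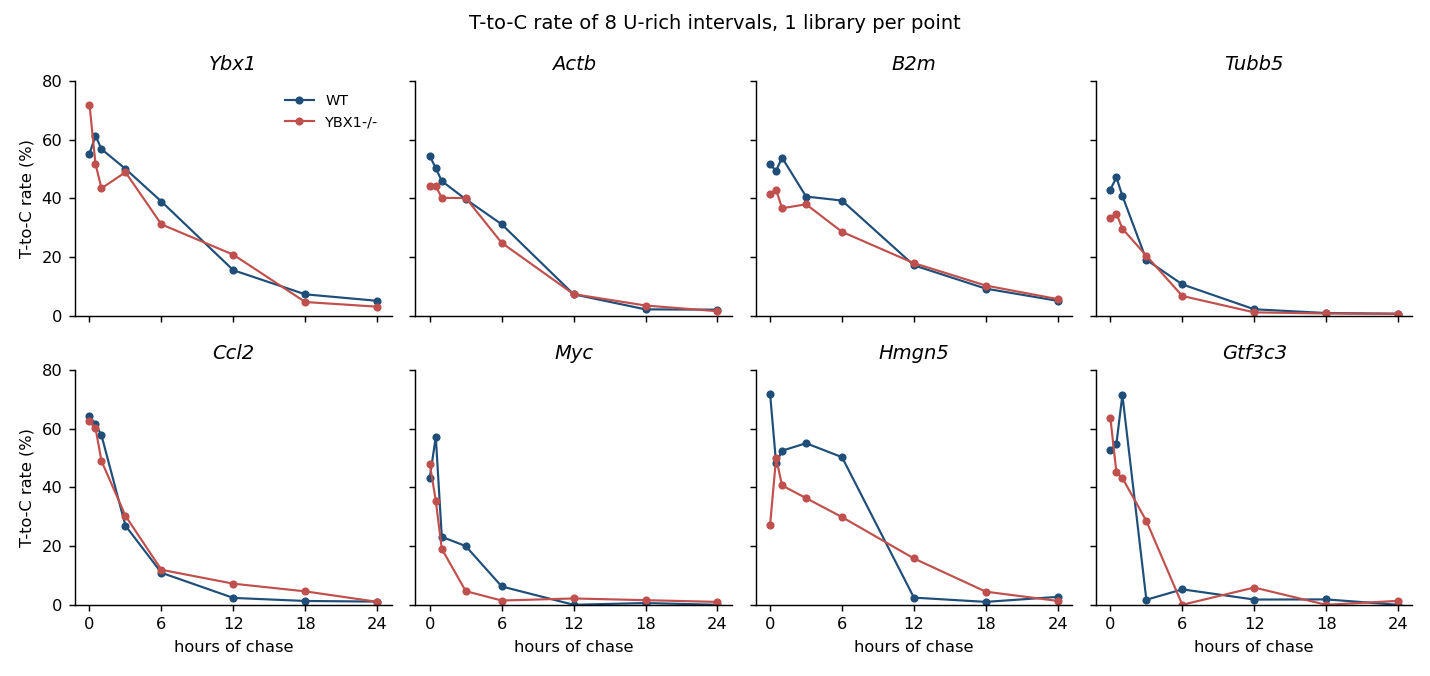
T-to-C rate in percent (y axis) over hours of chase (x axis) of 8 U-rich intervals, WT in blue and YBX1-/- in red, 1 library per point. Ybx1, Actb and B2m keep most label at 6 h, Tubb5 and Ccl2 have lost most of it by then, Myc is lower at 3 h in YBX1-/- than in WT, and Hmgn5 and Gtf3c3 have the highest (91.6%) and lowest (5.84%) WT retention among tested members with an early rate above the median.

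The lists of genes by function differed in how many of their intervals of middle length were U-rich, read beside the 13.8% over all. Of 26 hnRNP and SR proteins, which bind pre-mRNA and steer its splicing, 17 (65.4%) were members. Label in all 17 fell in both genotypes by the limma test described further on, which 95.2% of all genes tested passed in WT and 91.5% in YBX1-/-. Their median early rate was 53.5% in WT. Their retained label was 36.8% in WT and 43.9% in YBX1-/-, against 35.7% and 35.9% for all U-rich intervals. Intervals of the same list that were not U-rich retained 43.0% and 40.7%. The members on this list had a CPM of 12.1 to 365, and retention in the U-rich set rose with read level. U-rich intervals with a CPM of at least 20 retained 38.7% in WT and 43.6% in YBX1-/-. Srsf3 carried 47.1%, 59.5%, 54.2%, 26.3%, 13.1%, 2.49%, 0.626% and 0.874% in WT and 37.0%, 40.2%, 33.4%, 29.1%, 8.39%, 1.71%, 1.44% and 0.805% in YBX1-/-. It was lower in YBX1-/- in the first 3 libraries and slightly higher at 3 h. Hnrnpk retained 41.0% and 57.0%, Srsf7 33.1% and 41.3%, and Hnrnpc, which binds runs of U, 55.7% and 72.3%. Among the 19 binders of U-rich and AU-rich RNA, 6 were members (31.6%), and these included Pum2 (25.5% retained in WT) and the poly(C)-binding Pcbp1 (32.8%).

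Chromatin regulators were members in 11 of 23 cases (47.8%), and their retained label was low, with a median of 24.1% in WT and 28.7% in YBX1-/-. Those that were not U-rich retained 34.3% and 32.5%. The members on this list had a CPM of 5.26 to 20.2, beside a median of 16.3 in the U-rich set, where retention rose with read level. The 10 tested members fell in both genotypes. Crebbp, a histone acetyltransferase, retained 37.4% in WT, Smarca5, a nucleosome remodeller, 24.1%, the Polycomb subunit Suz12 31.7% and the maintenance methyltransferase Dnmt1 25.6%. Ubiquitin-conjugating enzymes were members in 7 of 21 cases (33.3%), with a median of 41.4% retained in WT. Of 12 genes of the m6A machinery 4 were members (33.3%). Wtap, a subunit of the methyltransferase complex, had 41.8% T and a run of 38 T, and carried 53.3%, 56.6%, 50.4%, 21.9%, 9.51%, 1.75%, 0.889% and 0.935% in WT. In YBX1-/- Wtap carried 44.1%, 45.3%, 35.2%, 11.7%, 4.43%, 2.97%, 1.93% and 0.746%. The m6A reader Ythdf1 retained 24.2% in WT and 24.0% in YBX1-/-, and Cbll1 17.0% and 14.2%.

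Other lists lay closer to the 13.8% or below it. Members were 15 of 106 vesicle trafficking genes (14.2%), 7 of 52 small GTPases (13.5%), 7 of 35 protein phosphatase subunits (20%), 6 of 38 Zfp zinc finger genes (15.8%) and 3 of 23 RNA decay factors (13.0%). Solute carriers (4 of 67, 5.97%), myeloid maturation genes (1 of 19, Adgre1) and translation factors (1 of 37, Eif3a) were seldom U-rich. The GTPases Rhoa and Rap1b retained 54.2% and 42.1% in WT, the endosomal retromer subunit Vps35 62.6% and the adaptor subunit Ap3s1 55.0%. Zfp genes retained a median of 28.6% in WT. Of the 6, 5 fell in YBX1-/- and 6 in WT, beside 91.5% and 95.2% of all genes tested. Each tested member of the other lists named here fell in both genotypes, except that 3 of 4 solute carriers passed in YBX1-/-.

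Members of the respiratory chain and the ribosome retained more label than most. The 4 respiratory chain members of 34 (11.8%) retained 54.0% to 72.3% in WT, with a median of 65.4%, and 62.8% in YBX1-/-. Ndufa4, a small cytochrome oxidase subunit, carried 45.6%, 49.9%, 51.7%, 36.3%, 34.7%, 12.9%, 4.24% and 2.36% in WT and 33.4%, 36.3%, 31.4%, 29.8%, 21.6%, 10.6%, 6.64% and 2.73% in YBX1-/-. It was higher in WT up to 12 h and lower at 18 and 24 h. The ribosomal stalk gene Rplp0 retained 79.1% and 84.1%, and Rpl15 42.9% and 36%. The intervals of the same lists that were not U-rich also retained much, at medians of 62.9% (respiratory chain) and 64.0% (ribosomal proteins) in WT. B2m, the light chain of MHC class I, chosen after its values were seen, retained 77.4% and 82.5%.

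Of 26 short-lived regulators with AU-rich elements and an interval of middle length, 3 were members. Myc, an oncogenic transcription factor, carried 43.3%, 57.3%, 23.2%, 20%, 6.25%, 0%, 0.597% and 0% in WT and 48.0%, 35.5%, 19.0%, 4.65%, 1.45%, 2.16%, 1.57% and 0.980% in YBX1-/-. It retained 31.8% in WT and 8.93% in YBX1-/-, and its genotypes overlapped, with 4 times higher and 4 lower. Ccl4, a chemokine, retained 25.8% and 11.2%, and Hif1a, the oxygen-regulated transcription factor, 46.3% and 38.3%. The decay difference of none of the 3 passed. The cyclins Ccnb1 and Ccnb2, which drive entry into mitosis, had low early rates in WT for U-rich intervals, 32.2% and 24.8%, against 38.5% and 39.4% in YBX1-/-. Bnip3, of the Bcl2 family, retained 45.6% and 39.4%.

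The fall of label over the chase was tested per gene as a straight line over hours with limma on log2(rate + 0.1 percentage points). A rate above 0 in at least 12 of 16 libraries was required, which 638 of the 644 members met. The remaining 6, Filip1l, Herc4, Kdm6a, Lgr4, Nasp and Rcor3, were above 0 in 10 or 11. Label fell in 633 of 638 members in WT (99.2%) at an adjusted p under 0.05, beside 95.2% of all 7411 genes tested. In YBX1-/- it fell in 615 (96.4%), beside 91.5%, and in both genotypes in 612. The 7411 genes had no limit of CPM or length as the members had. The share among the 3887 other tested intervals of middle length was not counted. The members had a median slope of -0.26 (WT) and -0.24 (YBX1-/-) log2 per h, where all genes tested had -0.27 and -0.25. B2m had slopes of -0.14 (SE 0.012) and -0.12 (SE 0.012), and Mybl1 one of -0.43 (SE 0.050) in WT. With the library median subtracted, 6 members in WT (0.94%) fell faster than the median gene at that threshold, beside 0.769% of all genes tested. None did in YBX1-/- (0 members by limma, beside 0.0%). The smallest limma adjusted p of a member in YBX1-/- was 0.043, for a loss slower than that of the median gene. Calls in that direction were not counted, in the members or in all genes tested. In YBX1-/- 69 members (10.8%) had an unadjusted limma p under 0.05 in either direction, beside 12.9% of all genes tested.

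Between the genotypes, the U-rich and other intervals moved by similar amounts up to 12 h and by different ones at 18 and 24 h. The median log2 difference of the U-rich intervals (YBX1-/- minus WT) was -0.32, -0.41, -0.60, -0.17, -0.97, -0.31, 0.43 and -0.23 from 0 to 24 h. For the others it was -0.36, -0.43, -0.55, -0.18, -0.98, -0.25, 0.05 and -0.06. The U-rich median was thus further above WT at 18 h and further below it at 24 h, each in 1 pair of libraries. The mean over times was -0.32 ± 0.40 (SD, n = 8) in the U-rich and -0.34 ± 0.32 (SD, n = 8) in the other intervals, and that of all genes tested -0.32. At 6 h 595 members (92.4%) were lower in YBX1-/-, beside 87.7% of the others, and at 18 h 237 (36.8%), beside 41.7%. The early rate was lower in YBX1-/- for 615 of 644 members (95.5%) and for 92.5% of the others. Retained label was higher in YBX1-/- for 368 members (57.1%) and for 54.1% of the others. Since whole libraries were shifted, the tests of single genes used values with the library median subtracted.

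No member passed the test of a difference in label loss between the genotypes over 0 to 24 h. The limma interaction of genotype and hours passed for 0 of 638 members, beside 0.108% of all genes tested (8 genes), and 70 members (11%) had an unadjusted p under 0.05, beside 12.5% of all. The difference was positive, a slower loss in YBX1-/-, for 316 members and negative for 322. Luc7l2, a splicing factor of the U1 complex, had the smallest adjusted p, 0.055, with a difference of -0.18 log2 per h (SE 0.028). It carried 50.1%, 44.1%, 43.6%, 19.2%, 12.0%, 6.13%, 0.442% and 1.72% in WT and 38.8%, 46.6%, 41.4%, 23.2%, 6.67%, 2.30%, 0% and 0% in YBX1-/-. Up to 3 h the genotypes overlapped, and from 6 h on YBX1-/- was lower at each time. From 0 to 6 h alone its difference was 0.0011, and in its longest interval 0.22. Of the named members that did not pass, Rchy1, a ubiquitin ligase, had -0.20 (adjusted p = 0.107) and Scamp1, a secretory carrier membrane protein, -0.18 (adjusted p = 0.115), both also at 0% at 18 and 24 h in YBX1-/-. In the other direction Ep300, a histone acetyltransferase, had 0.21 (adjusted p = 0.118), Mybl1, a Myb family transcription factor, 0.20 (adjusted p = 0.107) and Zbtb33, a methyl-CpG binding repressor, 0.16 (adjusted p = 0.157), which was 0.084 without the 24 h time point. Each of these 3 was at 0% at 24 h in WT, and Ep300 was at 100% in the YBX1-/- 0 h library and at 27.3% at 12 h.

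The count of calls depended on the time points. Over 0 to 12 h 23 members passed (3.61%, 7 slower and 16 faster in YBX1-/-), beside 3.62% of all genes tested. Without the 12 h time point 16 passed (2.51%), beside 2.75%, of which Cox16 and Gm20498 share 1531 bases and gave identical values, so 15 were distinct, and without 18 h 8 passed (1.25%), beside 1.23%. In each setting the members' share was close to that of all genes. No member passed in all 3 settings and 3 passed in at least 2, which were Vps35, Brd1 and Luc7l2, chosen after their values were seen. Vps35 carried 52.5%, 61.7%, 65.5%, 46.8%, 28.1%, 19.0%, 16% and 13.5% in WT and 37.3%, 44.5%, 42.7%, 28.7%, 8.67%, 0%, 1.99% and 0.521% in YBX1-/-. Its WT rate was the higher at all 8 times, and over 0 to 24 h its decay difference was -0.22 log2 per h (adjusted p = 0.243).

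**Figure D5:**
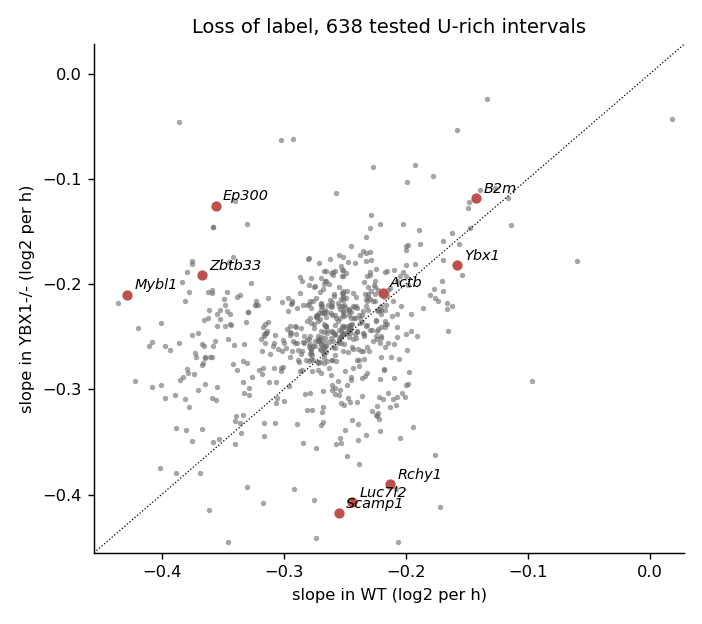
Slope of log2(rate + 0.1 percentage points) over hours in WT (x axis) and in YBX1-/- (y axis) for the 638 tested U-rich intervals, with equal slopes on the dotted line and named genes in red. Luc7l2, Rchy1 and Scamp1 lie below the line and Mybl1, Ep300 and Zbtb33 above it, and none passed the test of the difference.

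The level of label over all times, relative to the library median, gave no member past the threshold (limma genotype term, 0 of 638, beside 0.0% of all genes tested). An unadjusted p under 0.05 was reached by 35 members (5.49%), beside 5.60% of all, and the smallest adjusted p was 0.779. The chemokine genes Ccl2 and Ccl7, which attract monocytes and both lie on chromosome 11, were among those named by smallest p with a higher level in YBX1-/-. Ccl2 carried 64.3%, 61.6%, 57.8%, 27.0%, 10.9%, 2.34%, 1.3% and 1.09% in WT and 62.7%, 60.3%, 49.0%, 30.3%, 11.9%, 7.19%, 4.58% and 1.02% in YBX1-/-. Ccl7 carried 56.7%, 54.9%, 52.3%, 23.4%, 10.3%, 2.12%, 0.967% and 0.783% in WT, and 53.0%, 55.4%, 44.4%, 24.6%, 9.92%, 5.64%, 2.50% and 0.905% in YBX1-/-. Both were near the WT values at 0 and 0.5 h, where most members were lower in YBX1-/-, and both exceeded them at 12 and 18 h. Their level differences were 0.75 (SE 0.24) and 0.66 (SE 0.21) log2. Clec4a3, a myeloid lectin receptor, had 1.12 (SE 0.34) and was higher in YBX1-/- at 6 of 8 times. Lower values were those of Tsg101, an ESCRT-I subunit that sorts ubiquitinated cargo, at -0.65 (SE 0.24), of the phosphatase Inpp5f at -2.03 (SE 0.70) and of the caveolin Cav2 at -3.03 (SE 1.05). Cav2 was at 0% in 4 YBX1-/- libraries.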

How the data were processed

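SLAM-seq T-to-C rates were measured in 16 libraries of mouse leukemia cells, 1 per genotype and time point. The authors deposited the rate of each interval as a fraction from 0 to 1, here put on a percent scale, with its length and T content. Per the file headers, the deposited CPM and the coverage signal on Ts were means over libraries. CASAVA and HISAT2 2.1.0 are named in the submitters' processing notes, as is the human build GRCh38; the T counts matched GRCm38, used here for coordinates, counted from 1. The sources used here do not give the counting program, and depth per library is unknown, so no interval was given for a rate. No unlabelled library was analysed here.

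Rates were analysed as log2(rate + 0.1 percentage points), which shrinks differences near 0. Testing required a rate over 0 in 12 or more of the 16 libraries (7411 genes). Trended limma 3.58.1 fits (R 4.3.3) gave slopes over hours in each genotype, and, with the library median subtracted and time as a factor, the interaction of genotype and hours (6 residual degrees of freedom) and the genotype term. The threshold was a Benjamini-Hochberg adjusted p of 0.05 over all genes tested. The fits were tested on simulated data. Half-lives were fitted with scipy 1.17.1. Python 3.11.15 with pandas 2.3.3 made the counts.

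The members and lists were chosen with earlier results of these data known. Genes were named by a rule: members with the highest T share, CPM, ATTTA count and retention extremes, the smallest p in each direction, up to 4 per list by CPM, those next to the threshold, and Ybx1; 1 gene so named is not reported here. Alternatives were other limits of T share, length and CPM, other added values, filters and time windows, the longest interval per gene, and each time point left out. 18 members lie on a chromosome from which no sequence was shown.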

Additional observations from a re-analysis of the deposited data

How the results depend on the processing

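The higher rate of the U-rich intervals kept its direction under every alternative run, from 0.21 to 0.32 (log2) in WT and 0.28 to 0.35 in YBX1-/-, and from 0.27 to 0.30 and 0.32 to 0.35 as each time point was left out. Retained label was less stable. With a CPM of at least 20 the U-rich median was 38.7% in WT and 43.6% in YBX1-/-, and its difference from the others turned to -1.93 and -0.64 percentage points, from 1.39 and 1.06. In WT the difference was 3.14 in a narrower range of lengths. In YBX1-/- it was -0.12 at a T share of 0.32, 0.49 at 0.36 and 1.75 with the longest interval per gene. The cause was not tested.

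Label fell in 373 members in each genotype where a rate above 0 in all 16 libraries was required, since only 374 members were then tested. With the library median subtracted the slope is relative to the median gene. Then 6 members (0.94%) fell faster than that gene in WT, beside 0.769% of all genes tested, and 0 in YBX1-/-, beside 0.0%. With each time point left out, label fell in 626 to 634 of 638 members in WT and in 596 to 618 in YBX1-/-. With all time points it fell in 95.2% and 91.5% of all genes tested. Leaving out each time point also gave half-lives of 2.18 to 3.23 h and 2.23 to 3.40 h. Calls then numbered 0 to 16 for a decay difference and 0 to 0 for a level difference. The 16 calls came without 12 h and were 2.51% of members, beside 2.75% of all genes tested. Over 0 to 12 h there were 23 calls of a decay difference (3.61%, beside 3.62%). Over 0 to 6 h the differences of Mybl1 (-0.0086), Ep300 (-0.022) and Luc7l2 (0.0011) changed sign, as did that of Luc7l2 in its longest interval (0.22). Mybl1, Luc7l2, Rchy1 and Scamp1 passed without 12 h, and Zbtb33 and Luc7l2 without 18 h. Leaving out only the YBX1-/- 0 h library was chosen after seeing the data: label then fell in 607 of 638 members in YBX1-/- and no member passed a genotype comparison. The genotype fits compared libraries within time points; a block by replicate number did not apply, since each group is a single library. Unknown depth limits rates near 0: in the 12 to 24 h libraries 4.97% to 18.5% of U-rich intervals and 10.1% to 28.1% of the others were at 0.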

Other observations

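A few U-rich intervals carried little label from the start, and they were chosen after their values were seen. In WT 3 members (0.466%) had an early rate under 20%, as did 3.76% of the other intervals, and in YBX1-/- 9 members did. Jchain, the joining chain of antibodies made by plasma cells, carried 3.18%, 13.2%, 0.673%, 4.53%, 2.57%, 10.2%, 5.19% and 3.12% in WT and 15.2%, 9%, 2.19%, 11.5%, 4.84%, 4.76%, 6.45% and 3.03% in YBX1-/-. Its slope over the chase did not pass in either genotype (limma adjusted p = 0.769 and 0.347). None of the 6 lymphoid markers reached a mean CPM of 5, and Jchain had 12.4. Tatdn1 was similar, with an early rate of 4.36% in WT and 9.94% in YBX1-/-. Kdm1b, a histone demethylase, began low but fell, from 23.4%, 14.8% and 9.57% at 0 to 1 h in WT to 0% at 24 h. Prpf39, a splicing factor of the U1 complex, was low at a high read level of 81.8 CPM, with 23.4%, 25.4%, 20.6%, 3.36%, 2.94%, 0.861%, 0.261% and 0.259% in WT, and 15.7%, 12.8%, 8.39%, 3.92%, 0.611%, 0.915%, 0.83% and 0.342% in YBX1-/-.

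A member chosen after its values were seen had not lost label by 3 h in WT, and how many others did so was not counted. Hmgb1, a chromatin protein, carried 48.1%, 48.0%, 40.2%, 56.7%, 31.8%, 1.25%, 1.03% and 0.351% in WT and 33.7%, 50.2%, 37.2%, 39.6%, 20.4%, 2.04%, 1.10% and 1.06% in YBX1-/-. Its 3 h rate was the highest of the chase in WT, in 1 library, while in YBX1-/- it lay below the 0.5 h rate. In both genotypes little label was left from 12 h on.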
